A study of Homo sapiens with 4 samples.

Results

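The distal zinc finger cluster of 19q13.43 was taken as every deposited H4K20me3 region whose midpoint lay on hg19 chromosome 19 between 56 Mb and the chromosome end. It held 90 of the 2836 peaks of proliferating cells, 245 of the 35535 peaks of replicative senescent cells and 84 of the 18711 regions that DiffBind had called different between the states. The 3.119 Mb of sequenced bases held 105 coding genes, and 72 of them were zinc finger genes by symbol.

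Histone H4 trimethylated at lysine 20 was mapped by chromatin immunoprecipitation and sequencing in IMR90 cells, a line of normal human lung fibroblasts that stops dividing after long culture. Proliferating cells at population doubling 32 (PRO) and senescent cells at population doubling 86 (RS) were each profiled with 2 antibodies, from Millipore and from Cell Signaling, against a ChIP of total histone H4. The antibodies served as the replicates, and the single list of a state holds only domains called with each of them. There was therefore no spread between replicates, no test between PRO and RS, and no read depth behind a region. The part that depth or cell number played in the size of each list was not tested. The paper reports much more overlap between the antibodies' peaks in RS than in PRO. Its part in the list sizes was not tested either. The deposited DiffBind list carries no direction of change and is shorter than the list that the study describes. For its own list, the paper reports that the great majority of peaks were more enriched in RS. The DiffBind counts and shares below stand for the deposited regions.

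Most genes of the cluster encode proteins with arrays of C2H2 zinc fingers, in which each finger reads a few bases of DNA and a short linker joins it to the next. Many of these proteins also carry a KRAB or a SCAN domain. KRAB zinc finger proteins recruit the corepressor TRIM28 (also called KAP1), which brings in enzymes that methylate histone H3 at lysine 9. H4K20me3 is laid down mainly by SUV420H2, is often found where H3 lysine 9 is trimethylated, and is known from pericentromeric repeats, telomeres and zinc finger genes. ZNF274 is a zinc finger protein that itself binds the finger-coding exons of many zinc finger genes, and both its gene and that of TRIM28 lie in this cluster.

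The sequences that follow are reference sequence of GRCh37, which shares its coordinates with hg19 here, and each is written 5′ to 3′ on the strand given. The first 3 show stretches of 168 bases within finger-coding exons that were covered in RS, covered only by a DiffBind region, or covered in no list. Capitals mark the codons of the conserved linker between fingers, which was searched in the translated reading frame and found 368 times in 60 of 71 zinc finger genes (84.5%). These examples were chosen after their values were seen.
ZNF416, minus strand, chr19:58084129-58084296, inside an RS peak and a DiffBind region: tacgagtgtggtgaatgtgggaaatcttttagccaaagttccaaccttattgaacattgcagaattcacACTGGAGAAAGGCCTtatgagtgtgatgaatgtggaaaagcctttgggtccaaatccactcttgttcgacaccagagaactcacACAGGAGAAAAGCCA
ZNF530, plus strand, chr19:58118028-58118195, inside a DiffBind region and in no peak: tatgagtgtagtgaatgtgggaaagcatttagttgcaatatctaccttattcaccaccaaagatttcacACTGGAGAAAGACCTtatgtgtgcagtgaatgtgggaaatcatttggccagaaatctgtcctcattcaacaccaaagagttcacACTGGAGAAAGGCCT
ZNF304, plus strand, chr19:57868576-57868743, in no list: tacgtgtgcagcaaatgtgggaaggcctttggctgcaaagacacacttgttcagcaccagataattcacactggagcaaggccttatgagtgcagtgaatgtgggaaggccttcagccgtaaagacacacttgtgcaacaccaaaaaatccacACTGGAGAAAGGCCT

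A promoter is shown because PRO peaks gathered at gene starts. The 200 bases before the start of ZNF671 lay wholly inside a PRO peak and in no RS peak or DiffBind region. Capitals mark CG, which reads the same on both strands. The stretch held 7 CG, against a median of 15.5 (range 1 to 31) in the 72 stretches of that length before the zinc finger gene starts.
ZNF671 promoter, minus strand, chr19:58238993-58239192: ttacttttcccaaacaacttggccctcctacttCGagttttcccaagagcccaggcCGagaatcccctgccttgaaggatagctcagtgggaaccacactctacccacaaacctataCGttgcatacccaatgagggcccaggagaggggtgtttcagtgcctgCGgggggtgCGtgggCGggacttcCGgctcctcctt

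To ask how peaks were spread in each state, the sizes of the lists were compared. The PRO peaks of the cluster covered 86.5 kb, or 2.77% of its bases, and the RS peaks covered 495 kb, or 15.9%. RS peaks were thus 2.72 times as many and covered 5.73 times as many bases, whereas over the whole lists the ratios were 12.5 and 11.1. The cluster supplied 3.17% of all PRO peaks and 0.690% of all RS peaks. DiffBind regions covered 348 kb (11.2%).

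RS peaks of the cluster were also longer. The median length was 801 bp in PRO, 1201 bp in RS and 2401 bp among DiffBind regions, as the plot of region lengths shows. Mean lengths in the cluster were 961 bp for PRO peaks and 2022 bp for RS peaks. Over the genome, by contrast, the paper reports no change in mean peak length between the states. Within the cluster, the longest PRO peak, of 3801 bp, lay over the start of ZNF274. The longest RS peak, of 11401 bp, lay in ZNF329, and the longest DiffBind region, of 24401 bp, covered C19orf18. SICER builds domains from windows of 200 bp, so lengths fall in steps of that size.

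**Figure D1:**
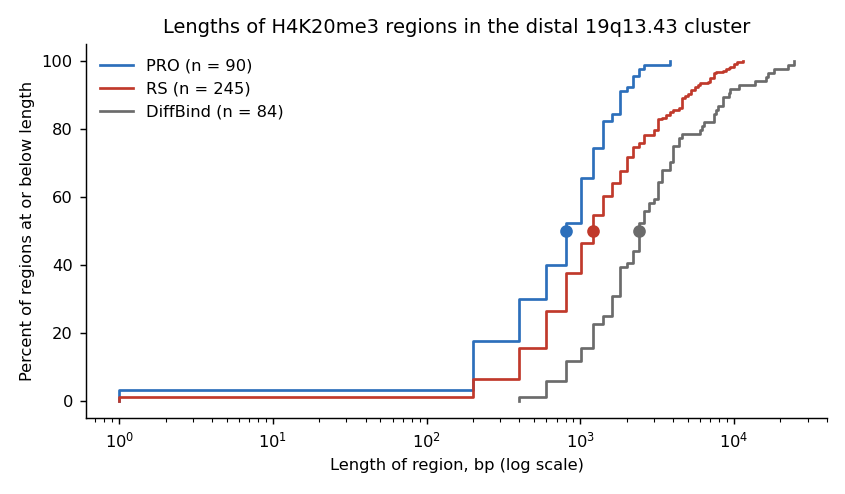
Cumulative share of regions (percent, vertical axis) against their length in bp (horizontal axis, log scale) for the 90 PRO peaks, 245 RS peaks and 84 DiffBind regions of the cluster, with a dot at each median. The medians are 801, 1201 and 2401 bp, and the steps follow the 200-bp windows of the peak caller.

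Peaks of proliferating cells mostly lay where RS peaks lay. Of the 90 PRO peaks, 58 (64.4%) overlapped an RS peak and 46 of these lay wholly inside RS peaks. Over the whole lists, 54.8% of PRO peaks overlapped an RS peak. Seen from the other list, 48 of 245 RS peaks (19.6%) overlapped a PRO peak, against 3.84% of all RS peaks. The overlapping PRO peaks had a median length of 1001 bp and the RS peaks around them one of 4601 bp, and the RS peak was the longer for 49 of the 58. The 32 PRO peaks with no RS peak had a median length of 601 bp. The shared bases were 67.4% of what PRO peaks covered and 11.8% of what RS peaks covered. Regions that hold a 75-base window repeated elsewhere in the assembly were then dropped from both lists. Of the remaining PRO peaks, 37.0% overlapped a remaining RS peak. At least 1 such window lay in 24 of the 58 overlapping PRO peaks (41.4%) and in 12 of the other 32 (37.5%). The same held for 29 of the 48 RS peaks that overlapped a PRO peak (60.4%), so RS partners of PRO peaks were dropped as well.

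More DiffBind regions overlapped an RS peak than a PRO peak. The authors computed these regions from the peak sets of both states, so overlap with the lists is partly built in. The RS list also covered more of the cluster, 15.9% of its bases against 2.77% for PRO. An RS peak lay under 72 of the 84 regions (85.7%) and a PRO peak under 15 (17.9%), against 73.4% and 1.38% of all DiffBind regions. From the peaks' side, 114 of 245 RS peaks (46.5%) and 23 of 90 PRO peaks (25.6%) overlapped a DiffBind region. Over the whole lists these shares were 44.8% and 11.4%, so the share of RS peaks was near that of all RS peaks. Each of the 114 RS peaks lay wholly inside DiffBind regions. The other 131 RS peaks lay outside the DiffBind list, among them all those closer to the telomere than its last region, 385 kb from the last sequenced base.

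Zinc finger genes held most of the peak bases in both states. Their gene bodies made up 44.6% of the cluster's bases but held 71.3% of the bases in PRO peaks and 70.3% of those in RS peaks. PRO peaks covered 4.43% of zinc finger gene bases and RS peaks covered 25.1%. In the other coding genes the shares were 0.111% in PRO and 4.78% in RS. Bases outside every gene lay between, at 1.84% in PRO and 9.32% in RS, and DiffBind regions covered 15.7% of zinc finger gene bases, 4.77% of other coding bases and 8.60% of bases outside genes. Regions with at least 1 repeated 75-base window, of which a longer region has more, were then left out. This lowered the zinc finger shares to 2.26% in PRO and 9.55% in RS and those of other coding genes to 0.0% and 1.00%. Repeated windows made up 6.71% of all windows in PRO peaks, 2.26% in RS peaks and 2.48% in DiffBind regions. Over the whole cluster they made up 3.46%.

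A PRO peak touched 32 of the 72 zinc finger genes (44.4%), where 3.89% of all coding genes of the genome were touched. An RS peak touched 37 (51.4%), where 20.9% of all coding genes were touched. A DiffBind region touched 24 (33.3%), against 18.2%. The counts of genes touched in PRO and RS thus lay closer together than the covered bases did. With only peaks of at least 1000 bp, PRO touched 20 of the 72 genes (27.8%) and RS touched 34 (47.2%). The other 33 coding genes were touched in 1 case by PRO (3.03%), in 7 by RS (21.2%) and in 6 by DiffBind regions (18.2%). These shares were near those of all coding genes of the genome.

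Sorted by list, 26 zinc finger genes were touched in both states, 11 in RS alone, 6 in PRO alone and 29 in neither. Among the 26 genes touched in both, the median share of the body was 8.51% in PRO and 60.1% in RS. The 11 genes touched in RS alone had a median RS share of 14.3%. Some of these genes overlap each other, such as ZNF549 and ZNF550 or ZNF586 and ZNF552, so a peak can count for more than 1 gene. Near-identical neighbours are uncertain too, since 15.7% of the 75-base windows of ZNF814 and 16.7% of those of ZNF587B occur again in the assembly.

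The gene with the largest RS share was ZNF416 (ENSG00000083817, chr19:58082934-58090279), an array of 11 fingers. RS peaks covered 98.9% of its body, PRO peaks 10.9% and DiffBind regions 100.0%. ZNF274 (chr19:58694396-58724928) followed, where PRO peaks covered 25.6%, RS peaks 93.5% and DiffBind regions 75.8%. Its start lay under the longest PRO peak of the cluster, and that peak lay wholly inside the RS list.

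ZNF134 and ZNF132 had both a high PRO share and a high RS share. ZNF134 was covered over 28.6% in PRO, the highest PRO share of any zinc finger gene here, and over 88.6% in RS. ZNF132 was covered over 26.2% in PRO and 87.5% in RS. DiffBind regions covered 8.50% of ZNF134 and no base of ZNF132, so the list of differing regions did not hold every gene with a large gap between the states.

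C19orf18 stood out among the coding genes that were not zinc finger genes by symbol. It lies between ZNF256 and ZNF606, and RS peaks covered 91.3% of it, PRO peaks 3.73% and DiffBind regions 100.0%. No other of these 33 coding genes reached 50% in RS. The 33 include FIZ1, in which 10 fingers were found and which had no base in any list. ZNF606 beside it was covered over 5.01% in PRO and 82.8% in RS.

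The rest of the 12 genes with the largest RS shares were ZNF329, ZSCAN18, ZFP28, ZNF135, ZNF550 and ZNF549. Their RS shares ran from 70.2% in ZNF549 to 77.6% in ZNF329. Their PRO shares ran from 1.12% in ZFP28 to 23.8% in ZNF329. ZSCAN18 belongs to the genes with a SCAN domain, which lets zinc finger proteins pair with each other. The 11 SCAN genes examined were ZSCAN1, ZSCAN4, ZSCAN5A, ZSCAN5B, ZSCAN18, ZSCAN22, ZNF274, ZNF444, ZNF446, MZF1 and PEG3, without ZSCAN5C. Of these, 4 (36.4%) were touched in PRO, 5 (45.5%) in RS and 3 (27.3%) by DiffBind regions. These shares were near those of all 72 zinc finger genes, 44.4%, 51.4% and 33.3%.

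In 8 zinc finger genes the PRO share was above the RS share. ZNF671 showed the widest gap, with 22.8% in PRO and no base in RS or in DiffBind regions. A PRO peak lay over its start, and all its PRO peaks together covered 80.1% of the finger-coding bases. ZNF256, next to the RS-covered C19orf18, had 21.5% in PRO and none in RS.

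ZNF418 had 25.2% in PRO and 19.03% in RS, and ZNF154 had 7.75% and 7.74%, which differ by a single base. The remaining 4, ZSCAN5B, ZIM3, ZNF586 and ZNF552, had PRO shares of 4.93%, 5.41%, 1.59% and 3.62%. None of them had an RS or DiffBind base. The 6 genes touched in PRO alone had no DiffBind region, so none of these gaps was matched by a region in the DiffBind list.

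**Figure D2:**
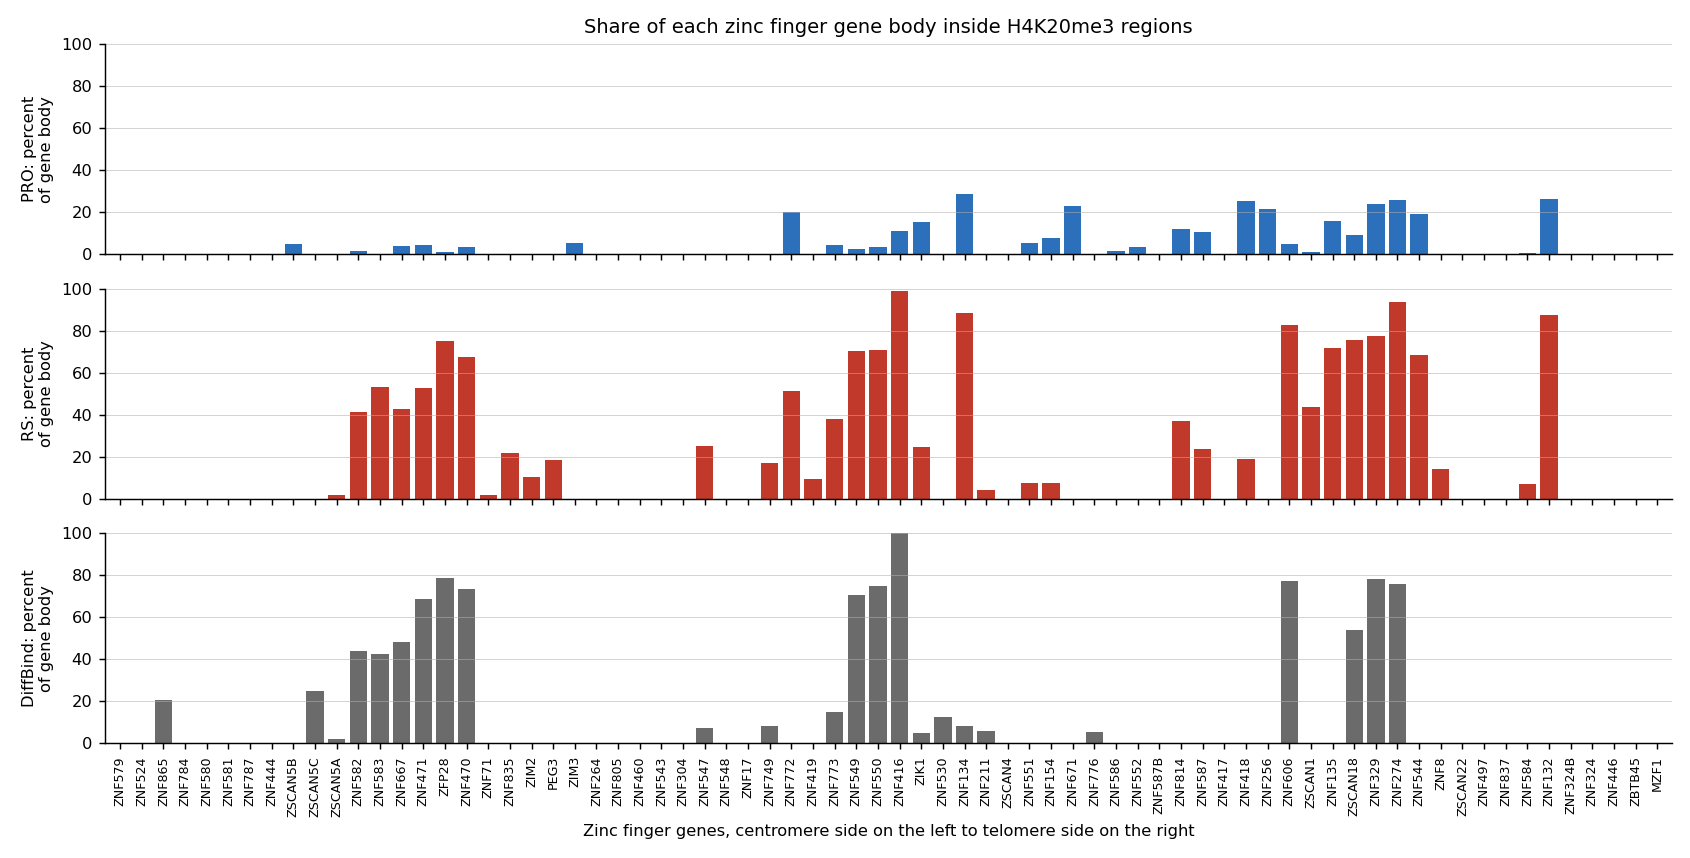
Share of each gene body (percent, vertical axes) inside PRO peaks, RS peaks and DiffBind regions for the 72 zinc finger genes, in chromosome order from the centromere side to the telomere side. RS bars reach 98.9% and the tallest stand in runs of neighbours, PRO bars reach 28.6%, and the first 5 and last 5 genes have no PRO or RS bar.

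Genes at the edges of the cluster carried no peak. The first 5 zinc finger genes, ZNF579, ZNF524, ZNF865, ZNF784 and ZNF580, had no PRO or RS base, although a DiffBind region covered 20.7% of ZNF865. The last 5, ZNF324B, ZNF324, ZNF446, ZBTB45 and MZF1, had none in any list. Within the cluster, the 5 neighbours ZNF264, ZNF805, ZNF460, ZNF543 and ZNF304 were likewise at 0 in all 3 lists.

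Other genes near the end of the arm held no region. TRIM28, UBE2M of the neddylation pathway, CHMP2A of the ESCRT machinery and SLC27A5, a bile acid enzyme of the liver, had no base in any list. The 6 NLRP genes, several of which act in oocytes and early embryos, were touched by no PRO peak, against 3.89% of all coding genes. RS peaks touched 5 of them (83.3%) and DiffBind regions 4 (66.7%), against 20.9% and 18.2% of all coding genes of the genome. The RS shares of the NLRP gene bodies were small, with a median of 3.40% and the highest in NLRP11 (6.63%).

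The imprinted domain, in which PEG3 and ZIM2 share a start and are expressed from the paternal chromosome, carried RS peaks over part of its genes. RS peaks covered 18.3% of PEG3, 10.6% of ZIM2 and 16.4% of USP29, and no PRO peak touched these genes. Over the whole cluster the RS share was 15.9%, and over zinc finger gene bases it was 25.1%. MIMT1, a non-coding transcript of the domain, had no base in any list. RS peaks covered 65.0% of the finger-coding bases of PEG3. DiffBind regions covered 16.4% of USP29 and no base of PEG3 or ZIM2. The neighbour ZIM3 had a PRO share of 5.41% and no RS base.

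It was then asked where along a zinc finger gene the regions lay. PRO peaks gathered at the start and RS peaks did not. In the plot of coverage along the genes, the PRO share was highest in the 500 bp before the start (19.8% over 72 genes) and in the first of the 20 bins of the gene body (19.4%), and it averaged 4.82% over the body. The RS share averaged 22.2% over the body, where no bin was under 17.1% and the highest reached 25.8%, and 13.6% over the 5 kb before the start. In the bin just before the start the PRO share stood above the RS share of 15.3%, and in the first bin of the body it stood below the RS share of 21.2%.

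**Figure D3:**
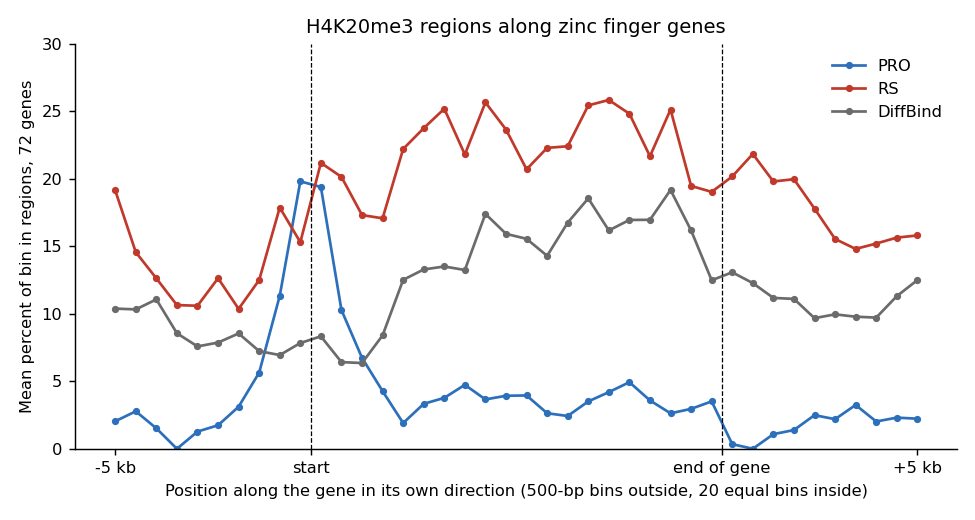
Mean share of each bin (percent, vertical axis) inside PRO peaks, RS peaks and DiffBind regions for the 72 zinc finger genes, against position in the direction of transcription, in 500-bp bins for 5 kb on either side and 20 equal bins of the body (horizontal axis). The PRO line peaks at the start (19.8%), whereas the RS line stays between 17.1% and 25.8% across the body.

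Around all coding starts of the cluster the picture was alike. The stretches within 2 kb of a coding start made up 12.98% of the bases and held 38.9% of the PRO bases, 11.2% of the RS bases and 7.66% of the DiffBind bases. By midpoint, 31 of 90 PRO peaks (34.4%) and 27 of 245 RS peaks (11.02%) lay in them. PRO peaks also differed in base composition. Their GC content was 53.7%, against 47.9% in RS peaks and 46.4% over the cluster, and the ratio of observed to expected CG was 0.478, 0.295 and 0.326, respectively.

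The finger-coding exons were the most covered gene part in RS. Over the 71 zinc finger genes with an intact reading frame on this build, which leaves out ZNF274, 742 fingers were found, with a median of 11 a gene. RS peaks covered 36.0% of finger-coding bases, 31.5% of other coding bases, 23.4% of untranslated exon bases and 22.1% of intron bases. DiffBind regions followed, with 22.0% of finger-coding bases and 14.0% of intron bases. PRO peaks covered 4.37% of finger-coding and 3.75% of intron bases, but 10.6% of the 2 kb on either side of the start, where RS peaks covered 15.3%.

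**Figure D4:**
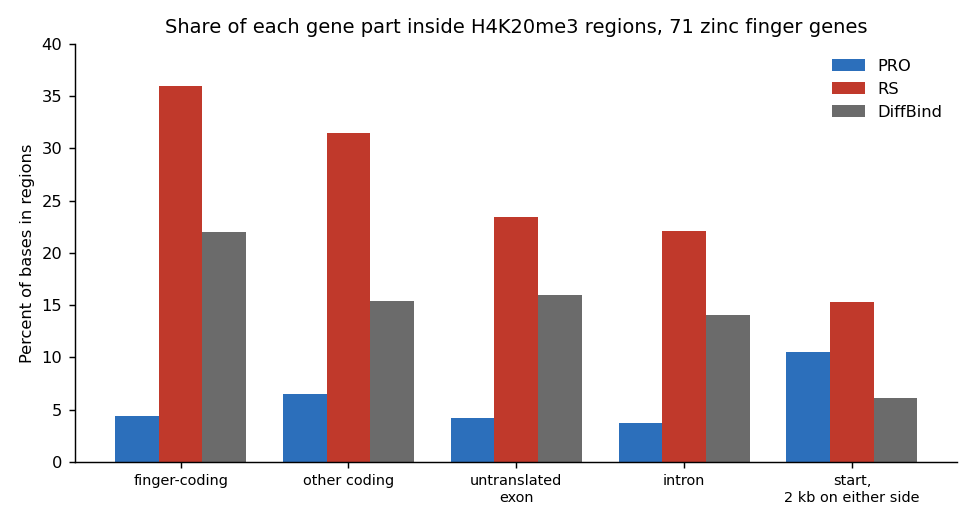
Share of bases (percent, vertical axis) inside PRO peaks, RS peaks and DiffBind regions for parts of 71 zinc finger genes, where the stretch around the start overlaps the other parts. The RS bars fall from 36.0% in finger-coding bases to 15.3% around the start, and the PRO bar is tallest around the start (10.6%).

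Gene by gene, the share around the start exceeded the share of finger-coding bases in 20 genes in PRO, and the reverse held in 7. In RS the start was above the fingers in 8 genes and below them in 26. At least 50% of the finger-coding bases lay in peaks in 3 genes in PRO and in 23 genes in RS. RS peaks covered all finger-coding bases of genes such as ZNF416, whose fingers are printed above, ZNF135, ZNF544 and ZNF132.

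The finger genes of the cluster were not all alike. The printed stretch of ZNF304 had no region in any list, and ZNF530, which lies between ZIK1 and ZNF134, had a DiffBind region over 82.3% of its finger-coding bases with no peak of either state. In all, 12 of the 84 DiffBind regions (14.3%) overlapped no RS peak, against 26.6% of all DiffBind regions. The DiffBind regions with no RS peak had a GC content of 51.4%, against 45.5% in the others.

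The RS peaks were gathered in blocks. When peaks up to 5 kb apart were joined, the RS list formed 59 blocks, and the 6 with most covered bases held 75.8% of the RS bases. The largest ran for 189 kb from ZSCAN1 through ZNF135, ZSCAN18 and ZNF329 to ZNF274, with 41 peaks over 77.3% of its length. It alone held 29.5% of the RS bases of the cluster. The PRO list formed 50 blocks, the largest of which spanned 14.4 kb at ZNF606.

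The next RS blocks lay at ZNF471, ZFP28 and ZNF470 (96.8 kb, 60.6% covered) and at ZNF582, ZNF583 and ZNF667 (95.0 kb, 54.8% covered). They were followed by C19orf18 with ZNF606 (62.2 kb, 75.0%) and by ZNF549, ZNF550, ZNF416 and ZIK1 (53.0 kb, 72.8%). ZNF544 formed a block of 39.2 kb that was 86.2% covered.

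The long stretches with no coding gene were then compared with the genes. Together, the bases in no coding gene amounted to 1189 kb and were covered over 2.04% in PRO and 10.2% in RS. In the 5 longest stretches the shares were 1.73% and 5.61%, and in all other bases between coding genes they were 2.24% and 13.3%. The longest stretches thus held a smaller RS share than the short gaps between neighbouring genes.

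The longest, 278 kb between ZIM2 and USP29, held 17 RS peaks over 7.59% and 2 PRO peaks over 0.432% of its bases. The next, 103 kb between ZNF835 and ZIM2, held 1 RS peak over 1.22% and no PRO peak. The stretch between SBK3 and ZNF579, 31.2 kb long, was empty in all lists.

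The stretch between ZNF606 and ZSCAN1 carried both lists at like shares. Over its 30.7 kb, PRO peaks covered 15.3% and RS peaks 14.4%, and no DiffBind region lay in it. The largest PRO block reached into it from ZNF606, and the largest RS block began a short way beyond it in ZSCAN1.

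On the approach to the telomere both lists rose, and the RS and DiffBind lists then stopped short of the end. Between 500 and 400 kb from the last sequenced base, where ZNF329 and ZNF274 lie, RS peaks covered 83.2% of bases, PRO peaks 17.8% and DiffBind regions 79.4%. From 400 to 300 kb the RS share was 55.2% and the PRO share 13.01%. From 300 to 200 kb neither list held a base, although this stretch holds 3 zinc finger genes.

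The last RS peaks stood at ZNF132. From 200 to 100 kb the RS share was 10.2% and the PRO share 2.60%, and the last RS peak ended 166 kb from the last sequenced base. Beyond it, 160 kb held no region of any list, with 9 coding genes that include TRIM28 and the last 5 zinc finger genes. The GC content of this empty stretch was 52.4%. It was not the longest: 189 kb near the centromere side, from ZNF865 to NLRP11, was empty as well, with a GC content of 49.0%.

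**Figure D5:**
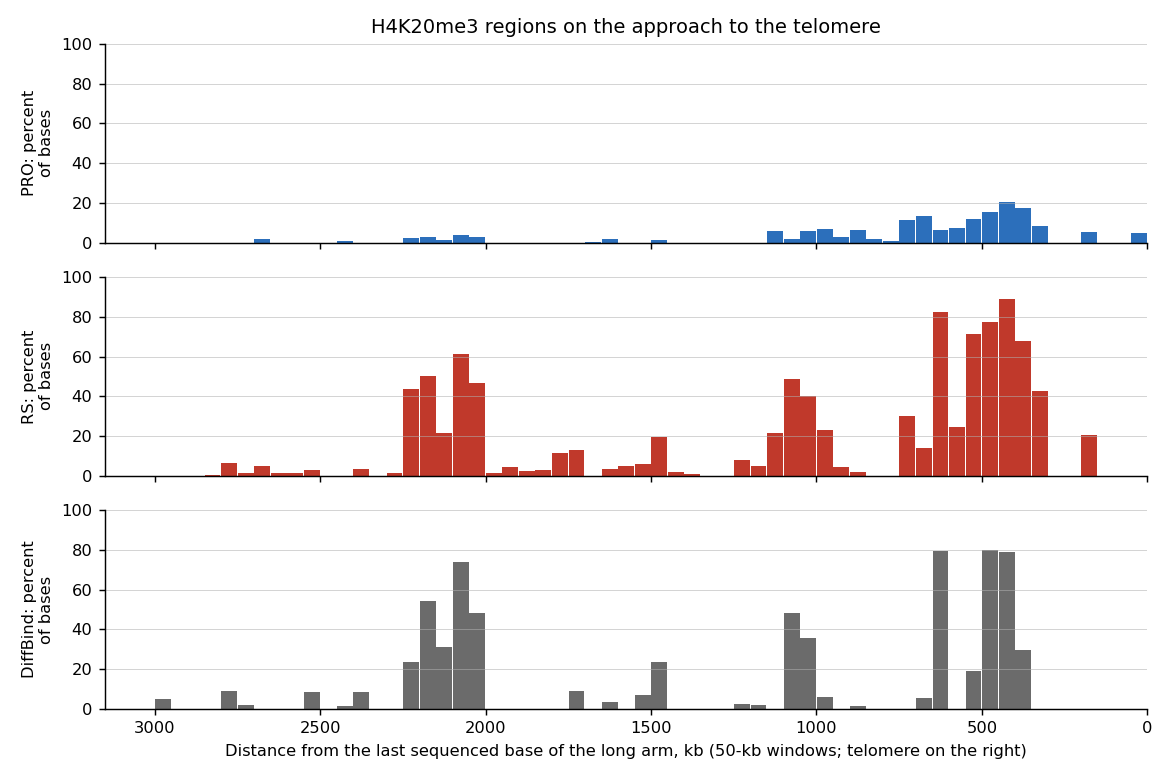
Share of bases (percent, vertical axes) inside PRO peaks, RS peaks and DiffBind regions in 50-kb windows against distance from the last sequenced base of the long arm in kb (horizontal axis, telomere on the right). RS windows reach 88.8% between 450 and 400 kb, no RS window within 150 kb of the end is above 0, and the outermost PRO window stands at 4.77%.

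At the very end of the arm only PRO peaks were listed. A first PRO peak, of 201 bp, ended 6.38 kb from the last sequenced base, and every 75-base window of it occurs again in the assembly. The last PRO peak, of 2201 bp, covered the last sequenced base and ran 18 bases into the unknown bases that follow it.

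Repeated sequence bears on both of these peaks, since 37.7% of the 75-base windows of the last one also occur again in the assembly. A read that matches several sites may be placed at any of them or left out, depending on how such reads were handled. The part of repeated sequence in the PRO signal at the end was not tested. The outermost 10 kb held no RS peak and no DiffBind region. Among 42 chromosome ends with sequence, the last sequenced base lay in a PRO peak at 12 and in an RS peak at 9, whereas the outer 10 kb were touched at 14 in PRO and at 15 in RS. The long arm of chromosome 19 was 1 of 3 ends where PRO covered the last base and the outer 10 kb held no RS base, the others being the starts of chromosomes 1 and 7. Whether or not the last base was covered, the outer 10 kb held PRO bases and no RS base at 4 ends. They held RS bases and no PRO base at 5 ends.

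The cluster was last set beside 3 other zinc finger clusters of the same chromosome and the rest of the genome, as a description with no test. RS peaks touched 51.4% of its 72 zinc finger genes, against 100.0% of 33 in 19p12, 96.6% of 29 in 19q13.12 and 94.9% of 39 in 19q13.41-q13.42. Over the 541 zinc finger genes elsewhere in the genome the share was 61.7%. PRO peaks touched 44.4% here, 45.5% in 19p12, 65.5% in 19q13.12, 56.4% in 19q13.41-q13.42 and 25.9% elsewhere.

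By bases the order was another. PRO peaks covered 4.43% of zinc finger gene bases here, against 1.09%, 1.73% and 1.42% in the same other clusters, and RS peaks covered 25.1% here, against 29.4%, 43.7% and 35.4%. Summed over gene bodies, the 541 zinc finger genes elsewhere were covered over 0.705% in PRO and 14.7% in RS, against 4.54% and 25.3% for the 72 genes here. Over all bases of each cluster, in genes or not, the RS list covered 5.73 times as many bases as the PRO list here. The ratio was 33.9 in 19p12, 6.18 in 19q13.12 and 12.6 in 19q13.41-q13.42. In 19q13.12, PRO peaks covered 5.91% of all bases but 1.73% of zinc finger gene bases, against 2.77% and 4.43% here. Most PRO bases of 19q13.12 thus lay outside zinc finger genes. Whether these differences exceed the spread between replicates cannot be known from single lists.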

How the data were processed

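The authors sequenced H4K20me3 ChIP libraries of PRO and RS cells, aligned the reads to hg19 with Bowtie2 and called domains with SICER (window and gap 200 bp) against total histone H4. Their processing notes name CASAVA 1.8.2, Trim Galore 0.3.0, Bowtie2 2.1.0, Picard 1.98, SICER 1.1 and DiffBind 1.8.3. They deposited the intersection of both antibodies' domains as 1 list a state, and the DiffBind regions, whose count model their methods and results name differently. The lists hold positions only. Here, starts were raised by 1 to give 1-based positions and intersected with GENCODE release 44 on GRCh37 (Python 3.11.15, numpy 2.4.6, pandas 2.3.3, pysam 0.24.0). Overlap counted from 1 base. Zinc finger genes were ZNF, ZFP, ZSCAN, ZKSCAN or ZBTB symbols with a digit, plus ZIK1, ZIM2, ZIM3, PEG3 and MZF1. Read-through models without a symbol were left out. Fingers were found by their C2H2 spacing in the translated sequence. Coverage and repeat counting were tested on simulated data.

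Named genes were coding genes of at least 2 kb: the 12 with the largest RS share, the 6 with the largest PRO share, and, whatever their values, ZNF274, TRIM28, the imprinted genes and the first 5 and last 5 zinc finger genes; others were named after their values were seen. The members and lists were chosen with earlier results of these data known. A gene and a sequence are not reported here.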

Additional observations from a re-analysis of the deposited data

How the results depend on the processing

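No paired analysis was possible because each state is a single merged list, and leaving out each antibody gave no value for the same reason. Of 131 recomputed values, 108 stayed within 1.5 times the reported count, ratio or share of bases, or inside its exact 95% binomial interval for a share of regions or genes; dropping regions of 1 base, membership by overlap, narrower zinc finger symbols, wider gene bodies and an overlap of 50% of the shorter interval moved none. Dropping every region that holds a repeated 75-base window, of which a longer region has more, left 54 PRO, 145 RS and 31 DiffBind regions. Zinc finger gene bases covered then fell to 2.26% (PRO), 9.55% (RS) and 3.74% (DiffBind), those of other coding genes to 0.0%, 1.00% and 0.334%, and bases outside genes to 0.598%, 3.71% and 1.12%. DiffBind regions then touched 15.3% of zinc finger genes, 37.0% of PRO peaks overlapped an RS peak and 23.4% of RS peaks a DiffBind region; the ratio of RS to PRO bases was 4.19. Keeping regions of at least 1000 bp left 43 PRO and 153 RS peaks, with PRO touching 27.8% of zinc finger genes and 0.0% of other coding bases, 54.9% of RS peaks in DiffBind regions, and PRO shares of 1.40% at 100 to 200 kb and 0.440% at 1000 to 2000 kb from the end. Measured from the chromosome end with its unknown bases, the PRO share of the outer 25 kb was 15.9%. Depth per library was not used here.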

Other observations

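Non-coding genes of the cluster were also touched. RS peaks touched 21 of 49 long non-coding RNA genes and 13 of 39 pseudogenes, PRO peaks 11 and 3, and DiffBind regions 8 and 6. Over the genome, RS peaks touched 16.7% of long non-coding RNA genes and 7.97% of pseudogenes, PRO peaks 2.14% and 1.32%, and DiffBind regions 13.11% and 5.57%. In the cluster, 31 of these long non-coding RNA genes and 14 of the pseudogenes overlap a zinc finger gene, so their counts partly repeat those of the zinc finger genes. Of the 6 genes whose names end in -DT, for a transcript that diverges from the start of its partner gene, PRO peaks touched 5 and RS peaks 5. ZFP28-DT had 33.1% of its bases in PRO peaks and 66.2% in RS peaks, ZNF8-DT 19.5% and 84.3%, and ZNF584-DT none in either. Much of ZNF8-DT (93.8%) lies inside a zinc finger gene, so its values and those of ZNF544 share bases. These names were picked out with their values already known.

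The zinc finger pseudogene ZNF542P, which overlaps ZNF582, had no PRO base. RS peaks covered 70.4% of its pseudogene model and DiffBind regions 45.4%. In its longer model as a long non-coding RNA the shares were 46.1% and 25.6%. Of the pseudogene model, 45.0% lies inside a zinc finger gene, so its values and those of ZNF582 share bases. By finger number, the median was 9 fingers in the 29 zinc finger genes touched by neither state and 12 in the 26 touched by both. It was 11 in the 11 touched in RS alone and 8.5 in the 6 touched in PRO alone. Median gene lengths in the same order were 11.3, 21.9, 23.8 and 9.6 kb, and the part of length was not tested.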
